A study of Arabidopsis thaliana with 4 samples.

Results

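SHT (AT2G19070) and ATA20 (AT3G15400), which are expressed in the tapetum of the anther, INO (AT1G23420), which marks developing ovules, and CLV3 (AT2G27250), which marks stem cells of the shoot and floral meristems, were followed in inflorescences of Arabidopsis thaliana. The 4 genes were chosen by locus, and each was read only from probes that the platform annotation assigns to that locus alone. All 4 were among the 5265 genes tested that carry 1 locus name, out of 25415 features tested in all. They had 7 such probes, 1 for SHT, 2 for ATA20, 3 for INO and 1 for CLV3, and another 1 probe for SHT and 1 for INO was shared with other genes and was left out.

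Total RNA of apetala1 inflorescences was hybridised together with total RNA of wild-type inflorescences on each of 4 two-colour long-oligonucleotide arrays, called sets 1 to 4. The gene mutated in apetala1, AP1, encodes a MADS-domain regulator of flower initiation and of the outer floral organs. The labels give apetala1 RNA in channel 1 on sets 1 and 3 and wild-type RNA in channel 1 on sets 2 and 4. They name neither the apetala1 allele, the strain, the age of the plants nor the number of plants pooled. Nothing in them ties a set to plants of its own, so the p-values below cover the spread from array to array, part or all of which may be technical.

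Each deposited value is the log2 ratio of one channel to the other, and the numerator is not stated. Sets 2 and 4 were turned in sign, so that positive values run as sets 1 and 3 were deposited. If the ratio is channel 1 over channel 2, a positive value means more transcript in apetala1 than in wild type, and if it is channel 2 over channel 1 it means less. For that reason only the sign and size of each value are described, with no genotype called higher. Ratios hold no levels, so the identity of the tissue could not be checked from its markers, and AP1 itself had 0 probes of its own. In whole inflorescences, a change in the number of cells of a type and a change in RNA per cell cannot be told apart.

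The tapetum is the innermost layer of the anther wall. It feeds the developing pollen and supplies the material of the pollen coat and wall. INO is a YABBY transcription factor that is needed for growth of the outer integument, the outer covering that grows around the ovule. CLV3 is the secreted signal of stem cells that, through CLAVATA1 and related receptors, limits the expression of WUSCHEL and with it the size of the stem cell pool. In apetala1 flowers petals are often missing and further flowers can form in the axils of the outermost organs, while stamens and carpels are formed.

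For none of the 4 marker genes was a difference between apetala1 and wild type found that exceeded the spread of the arrays. In limma, a linear model with variances moderated across features, 0 of the 4 passed an adjusted p of 0.05, against 0.22% of all features tested, and 0 of the 4 had an unadjusted p under 0.05, against 16.3% of all features. None of the 4 had one sign on all 4 arrays, which 27.3% of the features with 4 values had. None of their 28 probe values lay at the limits of plus and minus 6.64, the log2 of 100, at which the deposited table stops.

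**Figure D1:**
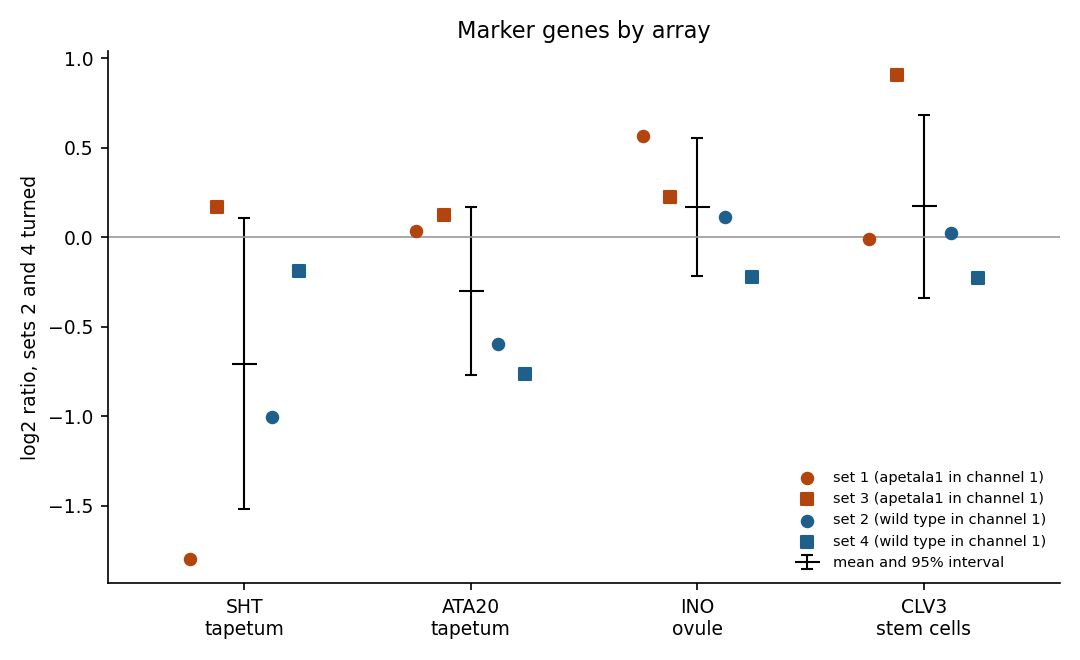
Log2 ratio (vertical axis, sets 2 and 4 turned in sign) of SHT, ATA20, INO and CLV3 on each of the 4 arrays, with the mean and its 95% limma interval as a black bar. The interval of every gene includes 0, and SHT has the widest spread, with sets 1 and 2 below sets 3 and 4.

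SHT encodes spermidine hydroxycinnamoyl transferase, which makes the hydroxycinnamoyl spermidines of the pollen coat in the tapetum. Its log2 ratios on sets 1 to 4 were -1.80, -1.004, 0.17 and -0.19. The values of sets 1 and 2 were far below 0 and those of sets 3 and 4 were close to it, so the 2 low arrays belong to different channel orders. The mean was -0.71 ± 0.88 (SD, n = 4; limma adjusted p = 0.360, unadjusted p = 0.0773). The 95% interval ran from -1.52 to 0.11, which is a ratio from 0.349 to 1.08.

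The absolute mean of SHT was greater than that of 93.6% of all features tested, and its SD over the arrays was greater than that of 93.1%, where the median feature had an SD of 0.29. The arrays on which SHT was low had the wider distributions over all probes by one measure of spread and not by another. The median absolute deviation over probes was 0.44 and 0.46 on sets 1 and 2, against 0.30 and 0.31 on sets 3 and 4. The SD over probes, limit values left out, was 0.561 and 0.705 on sets 1 and 2, against 0.593 and 0.527 on sets 3 and 4. The part of array spread in the SHT values was not tested beyond the settings that follow. With arrays scaled to equal median absolute deviation the mean of SHT was -0.59 (limma adjusted p = 0.385). With quantile normalization the mean of SHT was -0.90 (limma adjusted p = 0.421), so these settings moved it in opposite directions from -0.71. Without set 1 it was -0.34 and without set 3 it was -0.998, and neither passed (limma adjusted p = 0.670 and 0.254, and unadjusted p = 0.245 and 0.0195).

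ATA20 encodes a glycine-rich anther protein that is expressed in the tapetum. Averaged over its 2 probes, its log2 ratios on sets 1 to 4 were 0.04, -0.60, 0.12 and -0.77. Both arrays with apetala1 in channel 1 lay just above 0 and both arrays with wild type in channel 1 lay below it, with no overlap. The mean was -0.30 ± 0.45 (SD, n = 4; limma adjusted p = 0.481), with a 95% interval from -0.77 to 0.17, or a ratio from 0.586 to 1.12.

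The 2 probes of ATA20 gave the same order of channel orders. Probe A020397_01 had -0.08, -0.47, 0.12 and -1.24 on sets 1 to 4, a mean of -0.41 ± 0.60 (SD, n = 4; limma adjusted p = 0.446). GP008G11, a row whose nature the sources used here do not give, had 0.15, -0.73, 0.12 and -0.29, a mean of -0.19 ± 0.42 (adjusted p = 0.646). Set 4 was the lowest array for the first probe and set 2 for the second. The means of the probes lay 0.23 apart on the log2 scale, further than in 71.8% of the 248 genes with 2 probes.

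As deposited, before any array was turned, GP008G11 was positive on all 4 arrays and A020397_01 on 3 of them. The sign of ATA20 therefore rests on the turning of sets 2 and 4. With no array turned its mean was 0.38, and it did not pass either (limma adjusted p = 0.9999). The unadjusted limma p of ATA20 was 0.0742 with no array turned and 0.166 with sets 2 and 4 turned.

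INO was the gene with the most probes and the least agreement among them. Averaged over its 3 probes it had 0.57, 0.11, 0.22 and -0.22 on sets 1 to 4, with 3 arrays on the positive side. The mean was 0.17 ± 0.32 (SD, n = 4; limma adjusted p = 0.628), with a 95% interval from -0.21 to 0.55, or a ratio from 0.862 to 1.47. This average combined probes of opposite sign.

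Probe A004600_01 of INO had 1.03, 0.58, 0.71 and -0.08 on sets 1 to 4, positive on all but set 4, with a mean of 0.56 ± 0.47 (SD, n = 4; limma adjusted p = 0.261). Probe A021685_01 had 0.83, 0.18, 0.63 and 0.06, positive on all 4, with a mean of 0.43 ± 0.36 (adjusted p = 0.295). Probe A019808_01 had -0.16, -0.43, -0.67 and -0.65, negative on all 4, with a mean of -0.48 ± 0.24 (adjusted p = 0.209). Each of the 3 INO probes had an unadjusted limma p under 0.05, at 0.0300, 0.0440 and 0.0126 in that order, as did 16.3% of all probes tested singly, and 0 of them passed the adjusted threshold, which 0.218% of all probes did. Having one sign on all 4 arrays, as A019808_01 and A021685_01 did, was shared by 27.3% of the probes with 4 values.

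**Figure D2:**
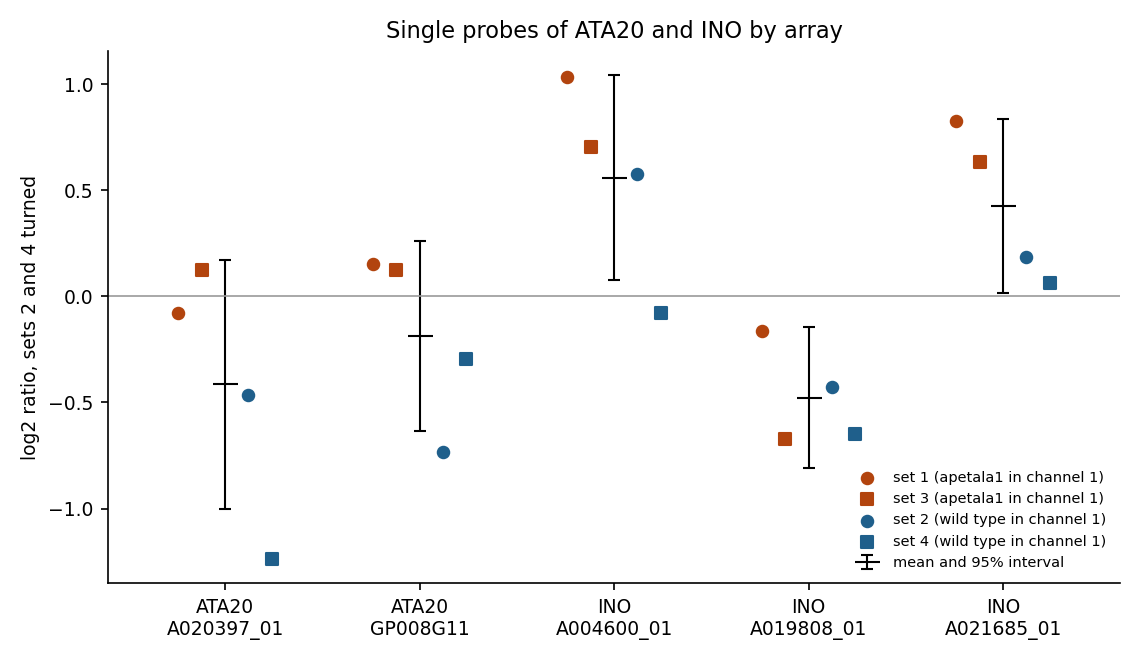
Log2 ratio (vertical axis, sets 2 and 4 turned in sign) of each single probe of ATA20 and INO on the 4 arrays, with the mean and its 95% limma interval as a black bar. INO probe A019808_01 lies below 0 on all 4 arrays, while A021685_01 lies above 0 on all 4 and A004600_01 on 3.

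The negative probe of INO stood apart from the other two on every array. A004600_01 exceeded A019808_01 by 1.20, 1.004, 1.38 and 0.57 on sets 1 to 4, a mean difference of 1.04 ± 0.35 (SD, n = 4). A021685_01 exceeded A019808_01 by a mean of 0.90 ± 0.31, again on 4 of 4 arrays. The exact two-sided sign-flip test gave p = 0.125 for each of these differences, the smallest that 4 arrays allow, and 0.188 after adjustment over the 3 pairs. A004600_01 and A021685_01 differed by 0.13 ± 0.22, with 1 array in the other direction (exact p = 0.375, adjusted 0.375).

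The means of the 3 INO probes spanned 1.04 on the log2 scale. Of the 19 genes with 3 probes, 17 had a smaller span, and the median span was 0.26. The probe sequences were not used here, so which of these probes reports INO was not tested. Summarised by the median of the probes, INO had 0.39 (limma adjusted p = 0.354). With A019808_01 left out it had 0.49 (adjusted p = 0.267), an alternative chosen after the data were seen, as was leaving out A004600_01, which gave -0.03.

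CLV3 had log2 ratios of -0.01, 0.02, 0.91 and -0.23 on sets 1 to 4. Set 3 alone was clearly positive, and sets 1 and 2 were at 0 in either channel order. The mean was 0.17 ± 0.50 (SD, n = 4; limma adjusted p = 0.717), with a 95% interval from -0.34 to 0.68, or a ratio from 0.791 to 1.60. Without set 3 the mean of CLV3 turned to -0.07 (adjusted p = 0.856).

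The widths of these intervals set what the 4 arrays could show. The absolute means of INO and CLV3 were close to the median of all features, 0.18, and were greater than those of 48.3% and 48.9% of them. ATA20 was above 70.2% of the features in absolute mean. In SD over the arrays INO exceeded 57.3% of the features, ATA20 75.6% and CLV3 80.5%, so each of the 4 genes varied more between arrays than the median feature did.

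**Figure D3:**
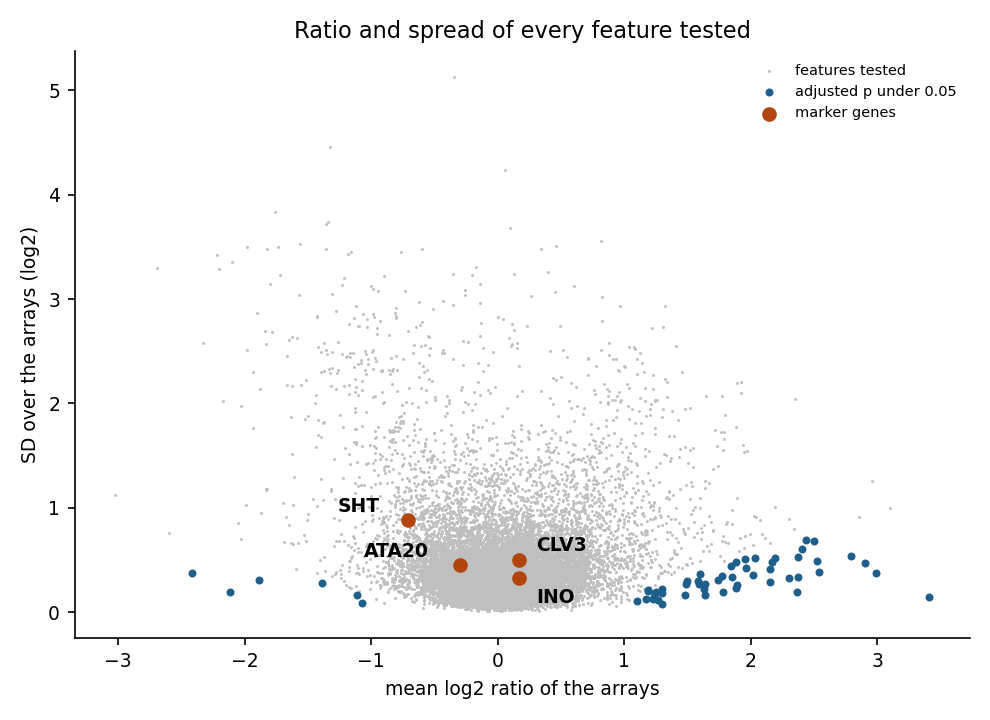
Mean log2 ratio over the arrays (horizontal axis, sets 2 and 4 turned in sign) against the SD over the arrays (vertical axis, log2) for the 25415 features tested, with the 56 features that passed an adjusted p of 0.05 in blue. SHT, at -0.71 with an SD of 0.88, lies at the edge of the main cloud, and ATA20, INO and CLV3 lie within it.

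The arrays of each channel order were also set side by side for each gene. Sets 1 and 3 averaged 0.08 for ATA20, against -0.68 on sets 2 and 4, and averaged 0.39 for INO, against -0.05. Both genes had no overlap between the channel orders, with sets 1 and 3 above, a pattern that 19.3% of the features with 4 values had. Among the INO probes, A004600_01 and A021685_01 had this pattern, while in A019808_01 the channel orders overlapped. SHT averaged -0.82 on sets 1 and 3 and -0.60 on sets 2 and 4, and CLV3 averaged 0.45 and -0.10, with overlap in both. In a limma fit with channel order as a term, that term was 0.38 for ATA20 (limma adjusted p = 0.897, unadjusted p = 0.0244) and 0.22 for INO (adjusted p = 0.897). For a gene with 4 values the term equals the mean with no array turned. The 0.38 of ATA20 is thus the value given for it above and not a second result. No feature passed for this term at the adjusted threshold, and 1156 features, or 4.55%, had an unadjusted limma p under 0.05.

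Few other genes of the same tissues had a probe of their own. Of 48 tapetum and pollen wall genes listed, 6 were measured, 36 ovule and integument genes gave 3, 30 stem cell genes gave 1, 6 YABBY genes gave 1, and 31 CLE genes, the peptide family of CLV3, gave 4. Counting each gene once, 8 genes were measured beside SHT, ATA20, INO and CLV3, and 0 of these 8 passed the adjusted threshold in limma, against 0.22% of all features. All 4 arrays had one sign in 4 of the 8, EMS1, SPL, SEU and CLE27, against 27.3% of the features with 4 values.

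The 6 tapetum and pollen wall genes, SHT and ATA20 among them, were 1 positive and 5 negative. Their median lay at -0.26 (log2 ratio), where the median of all features was -0.02. Of the 4 beside SHT and ATA20, EMS1, SPL and ATA27 were negative and SWEET8 was positive. A shift of the list as a whole was not tested. EMS1, the receptor kinase that specifies tapetal cells, had -0.30, -0.96, -0.16 and -0.33 on sets 1 to 4. All 4 arrays were negative, with set 2 the lowest. The mean was -0.44 ± 0.36 (SD, n = 4; limma adjusted p = 0.282), with a 95% interval from -0.84 to -0.03, and EMS1 was the 1 of 12 measured genes with an unadjusted p under 0.05 (0.0390), against 16.3% of all features.

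SPL, a transcriptional regulator needed to form the cells that enter meiosis in anthers and ovules, had -0.09, -0.23, -0.18 and -0.21. It was negative on all 4 arrays with a narrow spread, and its mean was -0.18 ± 0.06 (adjusted p = 0.465). ATA27, a beta-glucosidase of the anther, had 0.10, -0.87, 0.34 and -0.47, a mean of -0.23 ± 0.55 (adjusted p = 0.652). The 2 probes of ATA27 disagreed in sign. A002691_01 had -0.35, -0.87, -0.01 and -0.25 on sets 1 to 4, a mean of -0.37 ± 0.36, and A025090_01 had 0.55, 0.68 and -0.68 on sets 1, 3 and 4, a mean of 0.18 ± 0.75 (SD, n = 3), with a value at the limit on set 2 left out. The value of ATA27 on set 2 thus came from A002691_01 alone. SWEET8, a sugar transporter needed for the patterning of the pollen wall, had 0.37, -0.07, 0.39 and -0.48, a mean of 0.05 ± 0.41 (adjusted p = 0.914).

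In 5 of these 6 tapetum and pollen wall genes, all but SHT, both arrays with apetala1 in channel 1 lay above both arrays with wild type in channel 1. The gap was narrow in EMS1, with -0.30 on set 1 and -0.33 on set 4. It was also narrow in SPL, with -0.18 on set 3 and -0.21 on set 4. SWEET8 averaged 0.38 on sets 1 and 3, against -0.28 on sets 2 and 4. ATA27 averaged 0.22, against -0.67, but only as the average of its probes, since in A002691_01, its 1 probe with 4 values, the channel orders overlapped. Over all 12 genes this held for 7, with 1 gene in the opposite arrangement and 4 with overlap, against 19.3% and 16.4% of all features for the 2 arrangements. The channel order term was 0.44 for ATA27 (limma adjusted p = 0.897, unadjusted p = 0.0232) and 0.33 for SWEET8 (adjusted p = 0.897, unadjusted p = 0.0561). An unadjusted p under 0.05 for this term was shared by 4.55% of all features. Read singly, the term was 0.19 for A002691_01 (limma unadjusted p = 0.289) and 0.65 for A025090_01, which had no value on set 2.

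SEU, a transcriptional co-regulator that acts in ovule and carpel development, had 0.15, 0.00, 0.31 and 0.10 on sets 1 to 4. All 4 arrays were positive, set 2 only just, with a mean of 0.14 ± 0.13 (SD, n = 4; limma adjusted p = 0.583). With INO and SPL, which also acts in ovules, the 3 measured ovule genes were 2 positive and 1 negative, with a median of 0.14.

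The 4 measured CLE genes, CLV3 among them, were 3 positive and 1 negative, with a median of 0.15. CLE40, a signal of root stem cells that is closely related to CLV3, had 0.43, 1.61, 0.17 and -0.39, a mean of 0.46 ± 0.84 (limma adjusted p = 0.523) that rested mainly on set 2. CLE26 had 0.69, -0.26, -0.02 and 0.11, a mean of 0.13 ± 0.40 (adjusted p = 0.752). CLE27 had -0.21, -0.13, -0.36 and -0.20, negative on all 4 arrays, with a mean of -0.22 ± 0.09 (adjusted p = 0.380). The array on which CLV3 was high, set 3, was not the highest array for any of these 3.

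**Figure D4:**
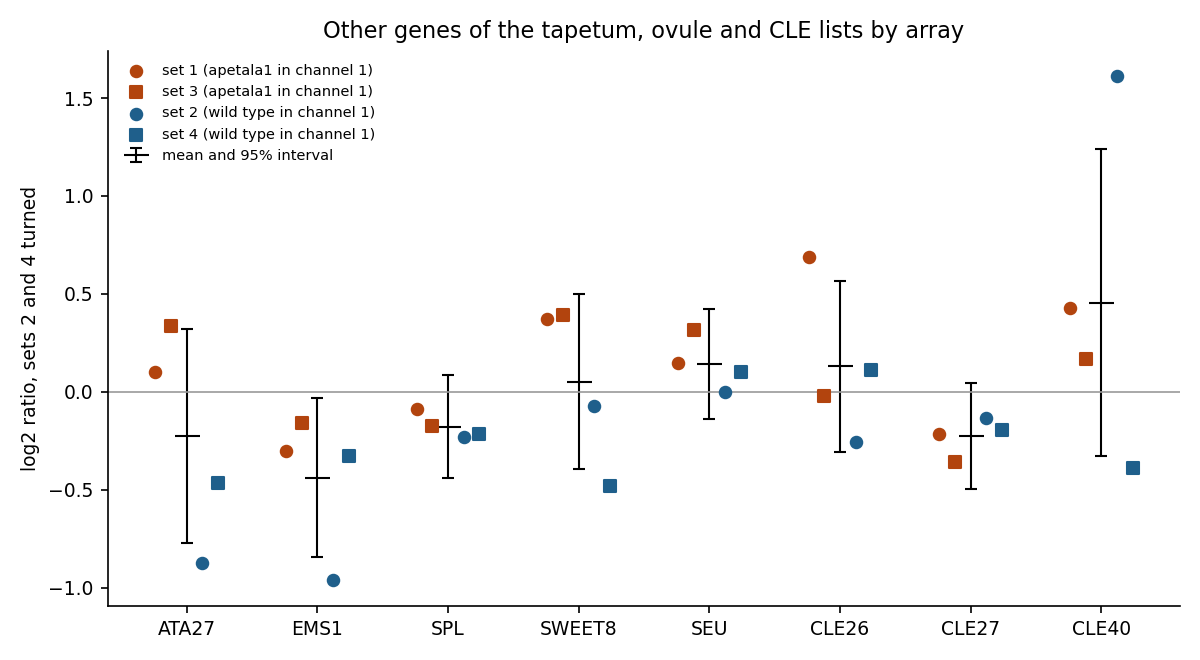
Log2 ratio (vertical axis, sets 2 and 4 turned in sign) of the 8 further genes of the tapetum, ovule and CLE lists on each of the 4 arrays, with the mean and its 95% limma interval as a black bar. EMS1, SPL and CLE27 are below 0 on all 4 arrays, SEU is above 0 on all 4, and SWEET8 is split by channel order, as is ATA27 where its 2 probes, which disagree in sign, are averaged.

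Likeness of pattern was measured as the Euclidean distance between the 4 log2 ratios of a gene and those of each of the other 5050 genes with 1 locus name and 4 values. Nearest to SHT were AT5G41890, AT5G57720 and AT2G19650, at distances of 0.42, 0.48 and 0.52. These 3 genes ranged from -1.58 to -0.91 on sets 1 and 2 and from -0.41 to 0.09 on sets 3 and 4. For ATA20 they were AT1G49920, AT1G29100 and AT3G27100, at 0.17, 0.22 and 0.35. For INO they were AT5G66050, AT2G43340 and AT3G21900, at 0.10, 0.11 and 0.14. For CLV3 they were AT3G63360, AT5G37210 and AT2G16220, at 0.14, 0.15 and 0.20, with 0.85 to 0.94 on set 3 and -0.26 to 0.11 on the other sets. The distance between the tapetum genes SHT and ATA20 was 1.96, while INO and CLV3, of different tissues, lay 0.90 apart, the shortest of the 6 distances among the 4 marker genes.

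**Figure D5:**
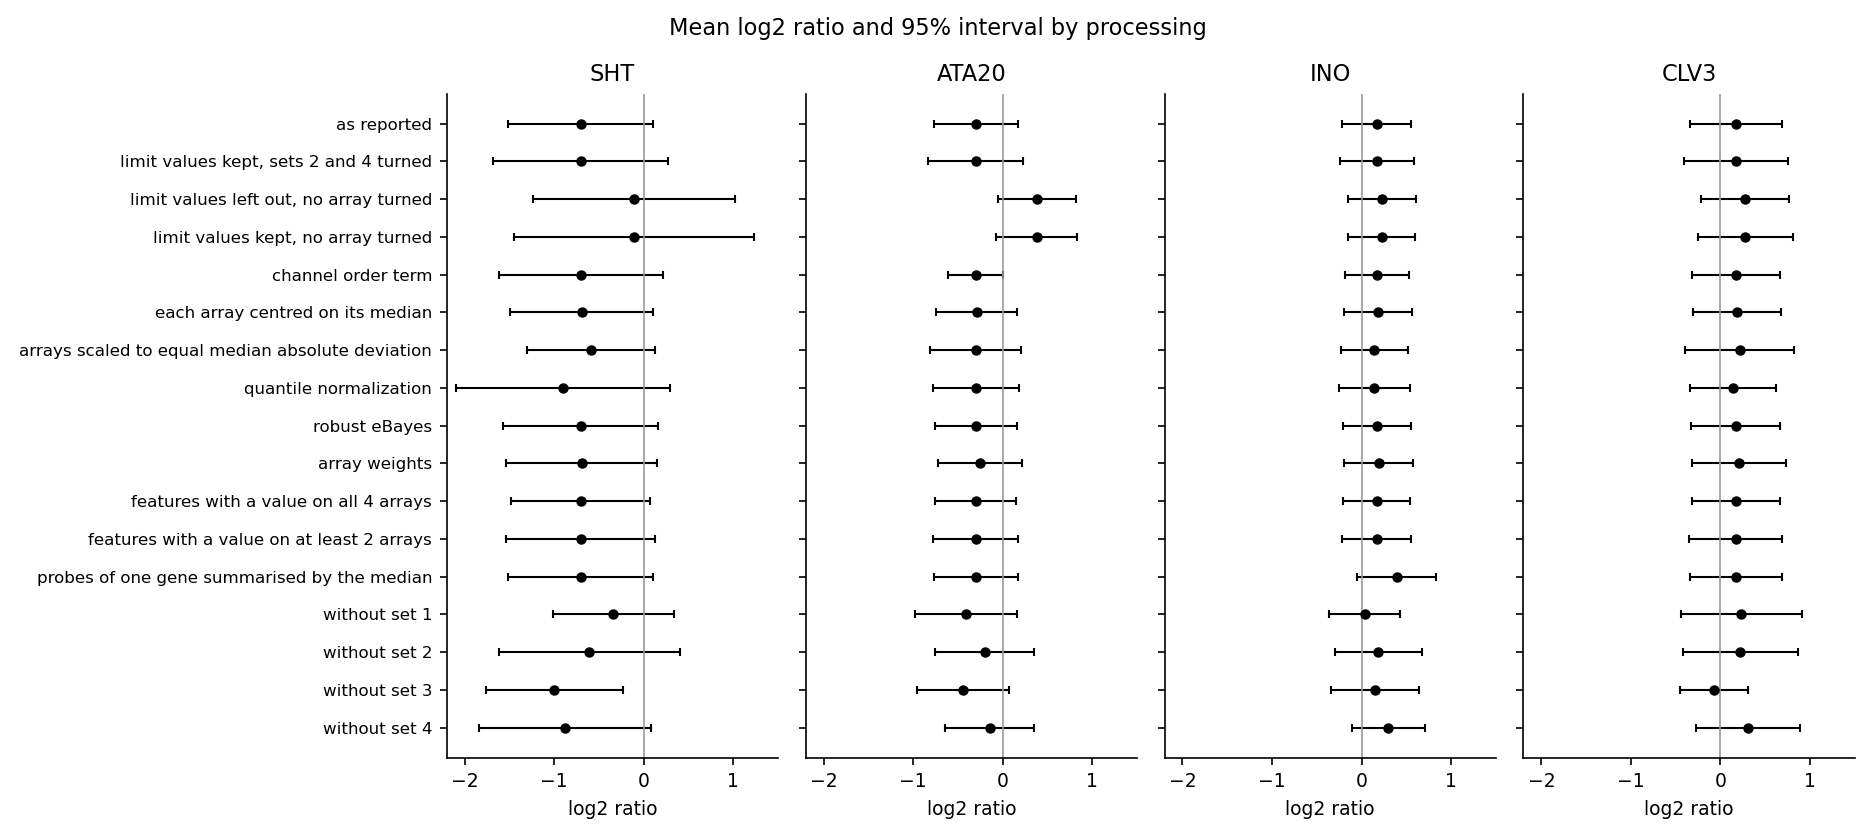
Mean log2 ratio with its 95% limma interval (horizontal axes) for SHT, ATA20, INO and CLV3 under the reported processing and each alternative (rows). SHT stays on the negative side in every row shown, ATA20 turns positive where no array is turned, CLV3 turns negative without set 3, and INO stays positive in the rows shown, which leave out readings from single probes or with 1 probe left out.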

How the data were processed

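The authors deposited log2 ratios of the channels, 1 column per array. Per the labels' descriptions they were processed and normalized by a published method, while the steps of that method and the dyes used are not stated there. The number of value columns of no sample was 0. The deposited medians over probes were -0.003, 0.06, 0.04 and 0.03 on sets 1 to 4. No centring was added.

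Of 26474 probes, 5784 had 1 gene in the platform annotation, 7497 several and 13193 none listed, and 5756 were matched to a locus of assembly TAIR10.1. The 2765 probe values within 0.0001 of a limit were treated as bounds and left out. Spots named as empty also reached the upper limit as deposited, at 19.4, 64.7, 59.2 and 58.9% of those with a value on sets 1 to 4. A value at a limit thus need not come from a large ratio of transcripts, and its origin was not tested. Sets 2 and 4 were turned because the labels exchange the channels there. Across probes, arrays of opposite channel order correlated at a median r of -0.14 as deposited with limit values left out, but at 0.33 with them kept. With limit values left out, r was -0.36 for sets 1 and 2 and -0.21 for sets 1 and 4. It was -0.07 for sets 2 and 3 and also for sets 3 and 4. Arrays of the same channel order then correlated at 0.34 (sets 1 and 3) and 0.24 (sets 2 and 4).

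Probes of a locus were averaged per array. Features with values on at least 3 arrays were tested two-sidedly against 0 in limma (lmFit, eBayes; limma 3.58.1, R 4.3.3) and Benjamini-Hochberg adjustment over all features. The fit was tested on simulated data, drawn with independent normal errors and no channel order effect. Those data do not bear on channel order or on errors shared by an array. The number of arrays limits the precision. The marker genes, lists and turning were chosen with earlier results of these data known. Named are the 4 genes, their probes, each measured list gene, and the 3 genes nearest each marker in pattern. List symbols were found at their locus for 141 of 146 genes, and 0 of the other 5 were measured.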

Additional observations from a re-analysis of the deposited data

How the results depend on the processing

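None of the 75 values of the 4 marker genes under alternative processing passed the adjusted threshold in limma, with a smallest adjusted p of 0.209 (INO probe A019808_01 alone), and 70 kept their sign. Those 70 are not separate checks. No marker probe had a limit value or a missing value, so keeping limits or changing the number of arrays required could not move a mean. A channel order term and robust eBayes could not move it either. Leaving out GP008G11 repeats the reading of ATA20 from A020397_01 alone. The 5 that reversed were ATA20 with no array turned, at 0.38 with limit values left out and 0.38 with them kept, INO read from A019808_01 alone (-0.48) or without A004600_01 (-0.026), and CLV3 without set 3 (-0.073). Leaving out each array gave -0.998 to -0.34 for SHT, -0.44 to -0.15 for ATA20, 0.04 to 0.30 for INO and -0.07 to 0.31 for CLV3.

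The background count of 56 features, 50 positive and 6 negative, was 1 with limit values kept and sets 2 and 4 turned, 0 with limit values left out and no array turned (852 at an unadjusted p under 0.05), and 152 where arrays were left unturned and limit values entered the fit. Those 152 were all positive, and 0 of them were among the 56. The background count was 1 with a channel order term, 19 with arrays scaled to equal median absolute deviation, 18 with quantile normalization, 140 where all 4 values were required and 109 with robust eBayes. Leaving out each array gave 0 to 38, with 0 without set 1 (2420 at an unadjusted p under 0.05), 1 without set 2 and 30 without set 3. Fits with fewer arrays or a channel term had fewer residual degrees of freedom. The 4 fits without 1 array gave different counts, and each used 3 arrays. The cause of the changes in count was not tested. Each ratio already pairs apetala1 with wild type within an array. No paired analysis was possible beyond this, because the 2 channel orders share no set number to serve as a replicate block.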
